A study of Mus musculus with 6 samples.

Results

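The genes described here are 10 genes whose transcripts are enriched in pericentral hepatocytes, the liver cells around the central vein. They are Glul, Oat, Axin2, Lgr5, Tbx3, Cyp2e1, Cyp1a2, Slc1a2, Rhbg and Lect2, chosen by symbol from a list of known zonation genes, and they are 10 of 35082 genes to which transcripts were assigned. Liver RNA was sequenced from 6 adult male mice, to compare animals with and without deletion of G3bp1 in hepatocytes on a high-fat diet. G3BP1 binds RNA and is a core protein of stress granules, the cytoplasmic bodies that hold stalled mRNA. The control group (genotype G3BP1f/f, 3 mice) carried floxed G3bp1 alleles and no Cre. The knockout-labelled group (genotype Alb-cre; G3BP1f/f, 3 mice) carried the same floxed alleles together with Cre driven by the albumin promoter, which acts mainly in hepatocytes. All 6 mice entered the diet at 8 weeks of age and stayed on it for 20 weeks, so neither group shows the liver on an ordinary diet. A Cre control without floxed alleles is not analysed here.

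The liver lobule is zoned. Blood enters at the portal tract and leaves through the central vein, and hepatocytes along this path divide the work between them: periportal cells make urea and glucose, whereas pericentral cells make glutamine, take up the ammonium that the urea cycle has missed, and hold much of the cytochrome P450 that oxidises drugs and alcohol. The pericentral state is maintained by Wnt ligands and R-spondin from endothelial cells of the central vein, which stabilise β-catenin in the neighbouring hepatocytes. Axin2, Lgr5, Tbx3, Glul, Oat, Slc1a2, Rhbg, Lect2, Cyp2e1 and Cyp1a2 are all known to depend, directly or indirectly, on that signal in mouse liver.

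Each library held between 20899135 and 21750007 estimated counts, and 12497 genes passed the filter on low counts, all 10 pericentral genes among them. G3bp1 itself stood at 44.1, 34.8 and 40.5 CPM in the control livers and at 44.0, 30.0 and 31.5 CPM in the knockout-labelled livers, in replicate order. CPM are counts scaled to a common library total after adjustment with TMM factors. The groups overlapped, and the log2 difference in G3bp1 was -0.18 (SE 0.22, edgeR adjusted p = 0.91), so these libraries do not show the deletion in the summed counts and the second group is called knockout-labelled throughout. Knockout-labelled replicates 2 and 3 stood apart in the share of transcripts with any count, at 36.3% and 37.8% against 30.2% to 31.2% in the other 4 libraries, and in mitochondrially encoded counts, at 9.19% and 10.2% against 7.22% to 7.64%. Knockout-labelled replicate 1 was quantified with another effective length setting than the other 5 libraries.

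No pericentral gene differed between the groups past the threshold, an adjusted p of 0.05 in the quasi-likelihood test of edgeR over all genes tested. Over the whole table that test called 0% of genes, its smallest adjusted p was 0.84, and 4.55% of genes had an unadjusted p under 0.05. Of the 10 pericentral genes, 8 had a log2 difference below 0, beside 48.4% of all genes tested, and 2, Axin2 and Tbx3, had one above 0. Their median log2 difference was -0.37, beside a median of 0.01 over all genes. In 1 of the 10, Cyp1a2, the unadjusted p was under 0.05 and the value was lower in the knockout-labelled livers, against 1.9% of all genes with such a p in that direction. In 2 of the 10, Cyp1a2 and Slc1a2, every knockout-labelled library lay below every control library, against 4.55% of all genes without overlap in that direction and 9.34% in either. DESeq2 called 0.0936% of the 12814 genes it tested, or 12 genes, and none of the 10. In bulk liver, fewer pericentral cells and less RNA per pericentral cell cannot be told apart. The p-values set each difference against the variation between these 3 and 3 animals, which is estimated in part from all genes tested.

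The size of this shift depended on the scaling and on single animals. TMM factors were 0.84 to 1.00 in controls and 1.07 to 1.14 in knockout-labelled libraries. Scaled by library totals alone the median over all genes was 0.27 and that of the 10 pericentral genes -0.13. On the deposited TPM these were 0.34 and -0.07. The pericentral median lay below that of all genes each time, but rescaling a library moves its genes together. The gap between the medians is therefore left almost unchanged by construction, and these scalings do not bear on it. Leaving out control replicate 3 gave a median of -0.21, and leaving out knockout-labelled replicate 2 gave -0.24.

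**Figure D1:**
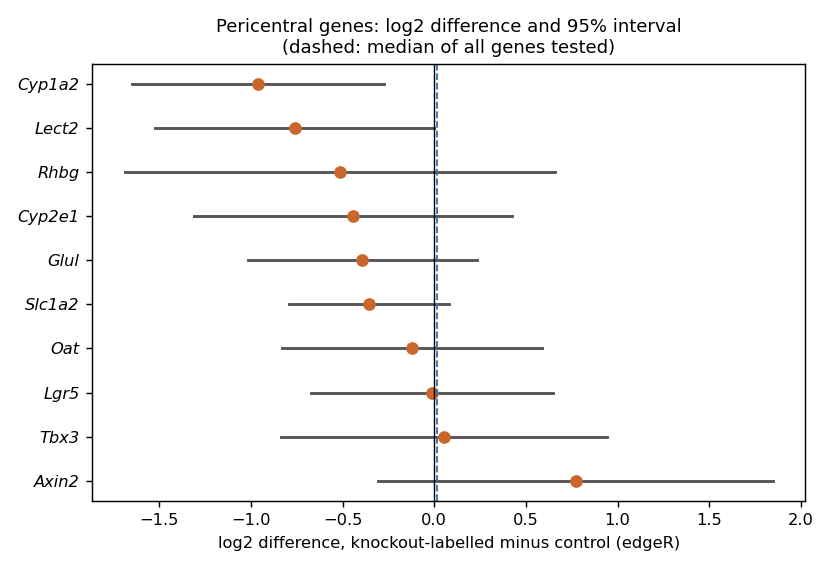
Log2 difference of each pericentral gene between knockout-labelled and control livers from edgeR (horizontal axis, log2 units; point, estimate; line, 95% interval; 3 libraries a group), with the median of all genes tested as a dashed line. The interval of Cyp1a2, from -1.65 to -0.28, is the one that lies wholly below 0, and that of Lect2 ends at 0.0007.

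Glul, Slc1a2, Rhbg and Oat form the nitrogen-scavenging part of the pericentral programme. Glul (ENSMUSG00000026473, chr1:153899944-153909723, plus strand, GRCm38) encodes glutamine synthetase, which joins ammonium to glutamate in the layer of hepatocytes that touches the central vein. Control livers 1 to 3 gave 649, 559 and 895 CPM and knockout-labelled livers 1 to 3 gave 611, 445 and 546 CPM. Control replicate 3 was the highest library and knockout-labelled replicate 2 the lowest, and the groups overlapped. The means were 701 ± 174 CPM (SD, n = 3) and 534 ± 83.9 CPM (SD, n = 3), a log2 difference of -0.39 (SE 0.27, 95% interval -1.02 to 0.23, edgeR adjusted p = 0.85), and -0.17 without control replicate 3. Under other scalings it came closer to 0, at -0.15 with library totals and -0.016 on the deposited TPM. Nearly all Glul counts, at least 99.8% in every library, were assigned to the coding transcript Glul-201.

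Slc1a2 (ENSMUSG00000005089, chr2:102658659-102790784, plus strand) encodes the glutamate transporter GLT-1, which in liver brings glutamate into the pericentral cells that make glutamine. Its level was 111, 124 and 131 CPM in control livers and 97.5, 102 and 85.7 CPM in knockout-labelled livers, in replicate order. All 3 knockout-labelled libraries lay below all 3 controls. The means were 122 ± 10.1 CPM (SD, n = 3) and 95.1 ± 8.47 CPM (SD, n = 3), a log2 difference of -0.36 (SE 0.19, 95% interval -0.79 to 0.08, edgeR adjusted p = 0.84). This separation depended on the scaling. Before scaling the libraries held 2084, 2256 and 2748 counts of Slc1a2 in control livers and 2260, 2307 and 2044 in knockout-labelled livers, which overlap, and scaled by library totals alone the log2 difference was -0.10. On the deposited TPM the groups overlapped too, at 21.3, 21.6 and 23.0 TPM in controls and 19.0, 23.3 and 16.1 TPM in knockout-labelled libraries. Of its transcripts, Slc1a2-203 (1957 bases) measured 32.5, 30.6 and 21.2 CPM in controls and 15.8, 16.7 and 9.24 CPM in knockout-labelled libraries, without overlap. It took 10.79% to 29.25% of the gene's counts. The division between transcripts is the quantifier's estimate, and the share of all transcripts without overlap was not computed. The longest, Slc1a2-202 (11595 bases), took 54.9% to 75.9% of the gene's counts and overlapped between groups, at 60.9 to 92.2 CPM in controls and 64.3 to 70.5 CPM in knockout-labelled libraries.

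Rhbg (ENSMUSG00000104445, chr3:88242874-88254709, minus strand) encodes an ammonium transporter of the Rh family that brings ammonium into pericentral cells. It was sparse, with 37 to 187 counts a library. The control libraries measured 4.26, 3.34 and 8.91 CPM and the knockout-labelled libraries 5.91, 1.64 and 4.02 CPM, in replicate order. Control replicate 3 was again the highest and knockout-labelled replicate 2 the lowest, as for Glul, with overlap between groups. The log2 difference was -0.51 (SE 0.51, 95% interval -1.69 to 0.66, edgeR adjusted p = 0.89), and without control replicate 3 it was 0.03, without knockout-labelled replicate 2 it was -0.15, and without knockout-labelled replicate 1 it was -0.96. On the deposited TPM it was -0.20.

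Oat (ENSMUSG00000030934, chr7:132557478-132576398, minus strand) encodes ornithine aminotransferase, which turns ornithine towards glutamate and so feeds glutamine synthesis. In replicate order, the control livers held 828, 564 and 1049 CPM and the knockout-labelled livers 837, 837 and 569 CPM. Low and high libraries stood in both groups. The log2 difference was -0.12 (SE 0.31, 95% interval -0.83 to 0.59, edgeR adjusted p = 0.95), and its sign turned with the scaling: it was 0.11 with library totals, 0.26 on the deposited TPM and 0.11 without control replicate 3. Oat shares its strand and part of its span with Fgfr2, which had at most 568 counts a library. Whether their exons overlap was not examined.

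**Figure D2:**
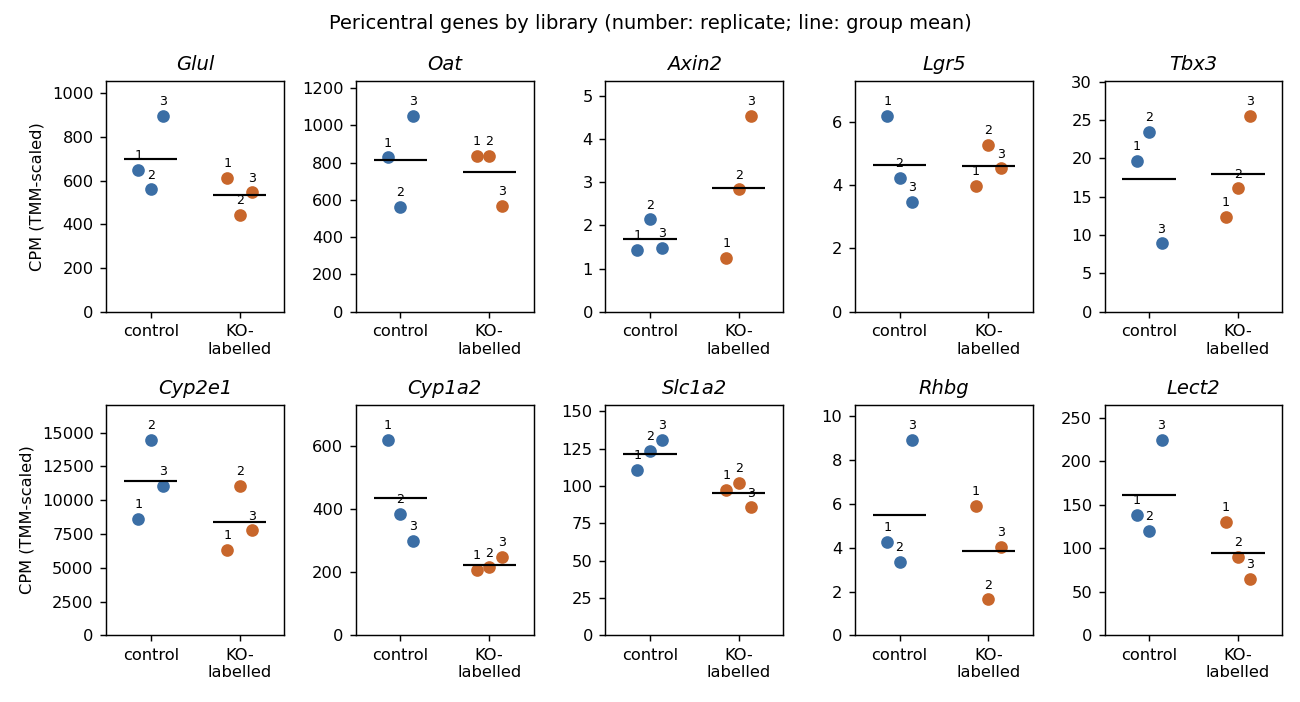
TMM-scaled CPM of each pericentral gene (vertical axes, linear, each from 0) in the 3 control and 3 knockout-labelled (KO-labelled) libraries; each point is 1 mouse with its replicate number and the line is the group mean. Cyp1a2 and Slc1a2 are the panels in which the groups do not overlap, and control replicate 3 is highest for Glul, Oat, Rhbg, Lect2 and Slc1a2.

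Axin2, Lgr5 and Tbx3 report on the Wnt signal itself. Axin2 (ENSMUSG00000000142, chr11:108920349-108950783, plus strand) encodes a scaffold of the complex that destroys β-catenin and is induced by Wnt as negative feedback. Control livers 1 to 3 gave 1.44, 2.14 and 1.48 CPM and knockout-labelled livers 1 to 3 gave 1.25, 2.83 and 4.53 CPM. Knockout-labelled replicates 2 and 3 were the highest libraries and knockout-labelled replicate 1 the lowest of all 6. The log2 difference was 0.77 (SE 0.47, 95% interval -0.30 to 1.85, edgeR adjusted p = 0.84), on 27 to 108 counts a library, and it was 0.28 without knockout-labelled replicate 3.

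By the quantifier's estimate, the excess lay in the full-length coding transcript. Axin2-201 (11 exons, 4260 bases) was given 0, 6.92 and 0 estimated counts in the control livers and 0, 30.7 and 62.9 in the knockout-labelled livers. By contrast Axin2-203, a non-coding transcript of 4 exons and 2045 bases at chr11:108943621-108950783 that starts inside the gene, was even, at 1.44, 1.76 and 1.48 CPM in controls and 1.25, 1.47 and 1.75 CPM in knockout-labelled libraries. In 3 of the 6 libraries, control replicates 1 and 3 and knockout-labelled replicate 1, no count was given to Axin2-201. All 27, 31 and 29 counts of the gene there were given to Axin2-203. Both transcripts end at the same base, and reads that tell them apart were not analysed here. The libraries with the most Axin2-201 were those with the largest share of transcripts above 0 and of mitochondrial counts, and the part of these in the result was not tested.

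Lgr5 (ENSMUSG00000020140, chr10:115450311-115587780, minus strand) encodes a receptor for R-spondins, which raises the cell's sensitivity to Wnt. Its level was 6.18, 4.22 and 3.48 CPM in control livers and 3.97, 5.27 and 4.53 CPM in knockout-labelled livers, in replicate order. The knockout-labelled values all lay inside the control range. The log2 difference was -0.01 (SE 0.29, 95% interval -0.67 to 0.65, edgeR adjusted p = 1.00), on 73 to 119 counts a library. Its sign turned in 9 of the 18 alternative settings.

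Tbx3 (ENSMUSG00000018604, chr5:119670669-119684724, plus strand) encodes a T-box transcription factor of pericentral hepatocytes. In replicate order, the control livers held 19.7, 23.4 and 8.91 CPM and the knockout-labelled livers 12.4, 16.1 and 25.5 CPM. Control replicate 3, the highest library for 5 of the pericentral genes, was the lowest for Tbx3. The log2 difference was 0.05 (SE 0.39, 95% interval -0.83 to 0.94, edgeR adjusted p = 0.98), and it was -0.25 when control replicate 3 was left out and -0.28 when knockout-labelled replicate 3 was. The estimated counts were divided between 2 coding transcripts of like length in a way that differed from library to library: Tbx3-201 (4856 bases) took 79.0%, 12.1% and 0% of the gene in controls and 100%, 46.4% and 26.0% in knockout-labelled libraries, and most of the rest went to Tbx3-203 (4777 bases).

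Lect2 (ENSMUSG00000021539, chr13:56542464-56548502, minus strand) encodes a protein that hepatocytes secrete into blood and is a known β-catenin target in mouse liver. Control livers 1 to 3 gave 139, 120 and 225 CPM and knockout-labelled livers 1 to 3 gave 130, 90.0 and 64.9 CPM. Only knockout-labelled replicate 1 reached into the control range, above control replicate 2. The means were 161 ± 55.9 CPM (SD, n = 3) and 95.1 ± 33.0 CPM (SD, n = 3), a log2 difference of -0.76 (SE 0.33, 95% interval -1.52 to 0.0007, edgeR adjusted p = 0.84). Leaving out control replicate 3 gave -0.44, and leaving out knockout-labelled replicate 1 gave -1.06. On the deposited TPM it was -0.39.

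The cytochromes carry the oxidation of drugs and alcohol. Cyp1a2 (ENSMUSG00000032310, chr9:57676937-57683703, minus strand) encodes a P450 that oxidises caffeine and aromatic amines and is induced through the aryl hydrocarbon receptor. Its level was 621, 387 and 301 CPM in control livers and 208, 216 and 248 CPM in knockout-labelled livers, in replicate order. All 3 knockout-labelled libraries lay below all 3 controls, and the knockout-labelled values lay much closer together than the controls, of which replicate 1 was the highest. The means were 436 ± 165 CPM (SD, n = 3) and 224 ± 21.3 CPM (SD, n = 3), a log2 difference of -0.96 (SE 0.30, 95% interval -1.65 to -0.28). The edgeR adjusted p was 0.84, and by unadjusted p it ranked 85 of 12497 genes. Leaving out control replicate 1 gave -0.62, and it ran from -1.16 to -0.52 over the 18 alternatives. On the deposited TPM the groups overlapped, at 231, 149 and 136 TPM in controls and 96.4, 116 and 142 TPM in knockout-labelled libraries. Nearly all counts, at least 99.4% in every library, were on the coding transcript Cyp1a2-201.

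Cyp2e1 (ENSMUSG00000025479, chr7:140763739-140774987, plus strand) encodes the P450 that oxidises ethanol and paracetamol. In replicate order, the control livers held 8634, 14452 and 11063 CPM and the knockout-labelled livers 6293, 11060 and 7766 CPM. In each group replicate 2 was the highest and replicate 1 the lowest, and the groups overlapped. The means were 11383 ± 2922 CPM (SD, n = 3) and 8373 ± 2441 CPM (SD, n = 3), a log2 difference of -0.44 (SE 0.38, 95% interval -1.31 to 0.43, edgeR adjusted p = 0.87). It ran from -0.70 without knockout-labelled replicate 2 to -0.23 without control replicate 2 and -0.12 on the deposited TPM. Between 76.7% and 89.0% of all counts of the 10 genes were from Cyp2e1.

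Cyp2e1 counts were divided between a coding transcript of 9 exons, Cyp2e1-201, and one of 8 exons, Cyp2e1-202, which lacks exon 5. Exon 5 (chr7:140770052-140770228, plus strand, GRCm38) has 177 bases, that is 59 codons with none left over, and the coding sequences are 493 and 434 codons long. The transcripts also differ at their ends: Cyp2e1-201 spans chr7:140763739-140774981 and Cyp2e1-202 spans chr7:140763819-140774987. The stretch around exon 5 is shown from the GENCODE M21 transcripts, 5′ to 3′. Exon 5 is in capitals and 20 bases of exons 4 and 6 are in lower case. The second line gives the same flanks as joined in Cyp2e1-202.
Cyp2e1-201: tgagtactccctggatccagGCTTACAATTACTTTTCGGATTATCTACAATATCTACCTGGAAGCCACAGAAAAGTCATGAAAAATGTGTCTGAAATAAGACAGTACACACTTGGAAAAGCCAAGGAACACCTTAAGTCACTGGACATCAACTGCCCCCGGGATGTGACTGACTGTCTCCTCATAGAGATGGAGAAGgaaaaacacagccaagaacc
Cyp2e1-202: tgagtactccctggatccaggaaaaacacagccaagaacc

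Cyp2e1-202 took 65.8%, 16.3% and 27.0% of the gene's counts in the control livers and 54.8%, 8.93% and 8.50% in the knockout-labelled livers. The first replicate of each group stood far above the others, and the groups overlapped. The mean share was 36.4% ± 26.0 in controls and 24.1% ± 26.6 in knockout-labelled libraries (SD, n = 3), with p = 0.5 in a two-sided exact permutation test, which with 3 against 3 cannot go below 0.1. In CPM, Cyp2e1-201 measured 2954, 12091 and 8071 in controls and 2846, 10071 and 7104 in knockout-labelled libraries. Cyp2e1-202 measured 5679, 2361 and 2991 CPM in controls and 3446, 988 and 660 CPM in knockout-labelled libraries. These shares are the quantifier's estimates, since most of the sequence is common to both transcripts, and junction reads were not analysed here.

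**Figure D3:**
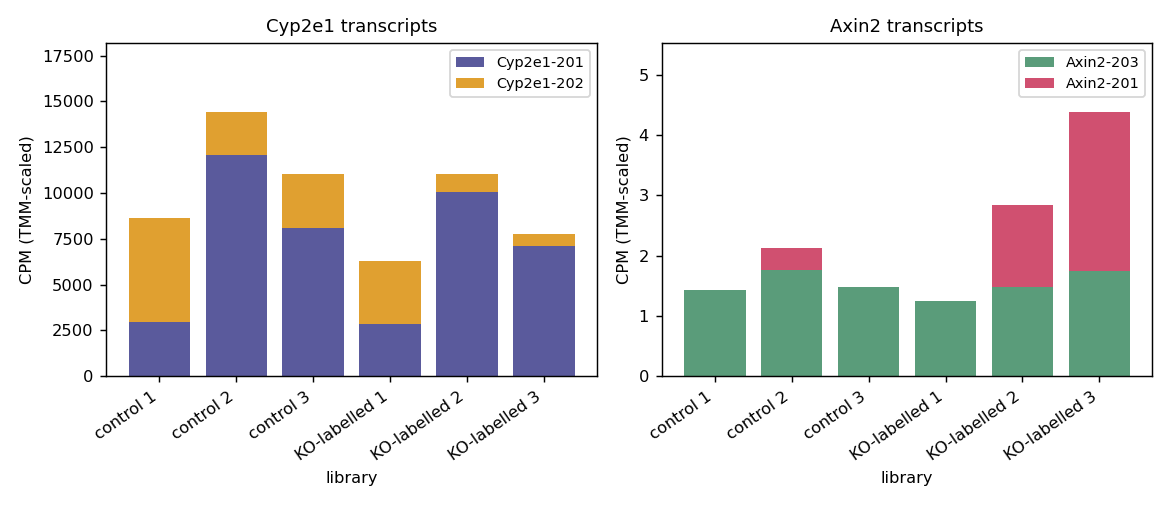
TMM-scaled CPM (vertical axes, linear) of the 2 main transcripts of Cyp2e1 (left) and of Axin2 (right), stacked, in each of the 6 libraries. Cyp2e1-202 is the larger part in replicate 1 of both groups (65.8% and 54.8% of the gene), and Axin2-201 has its highest values in knockout-labelled replicates 2 and 3.

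Levels between the genes can be compared per transcript length, on the deposited TPM scale. Averaged over the 6 libraries, Cyp2e1 came first with 5001 TPM and was above every other pericentral gene in every library. Oat (318 TPM), Glul (187 TPM), Lect2 (165 TPM) and Cyp1a2 (145 TPM) followed, and the ranges of these 4 overlapped from each to the next. Slc1a2 (20.7 TPM) overlapped with neither neighbour. Tbx3 (3.11 TPM), Rhbg (2.13 TPM), Axin2 (0.860 TPM) and Lgr5 (0.844 TPM) closed the order, with ranges that overlapped from each to the next. Together the 10 genes took 0.886% to 1.37% of all counts in a library.

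The 10 genes did not vary as a block between animals. Glul and Rhbg went together most closely over the 6 libraries (Pearson r of log2 CPM 0.93), followed by Glul and Lect2 (0.84) and Slc1a2 and Lect2 (0.83). Oat and Tbx3 ran opposite (-0.90), as did Axin2 and Lect2 (-0.85), while r was -0.03 for Glul and Cyp2e1. These values describe 6 libraries that share their scaling and group structure. Among 6107 genes of at least 10 CPM, Slc13a3 (0.99), S100a11 (0.97) and Pdxk (0.96) had patterns most like Glul. Dnajc22 (0.98), Impa1 (0.98) and Dpagt1 (0.97) were most like Cyp2e1, and Azi2 (0.98), Pdp2 (0.97) and Tmem134 (0.96) most like Cyp1a2. For each target these are the highest of 6107 values over 6 libraries, and they carry no test.

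**Figure D4:**
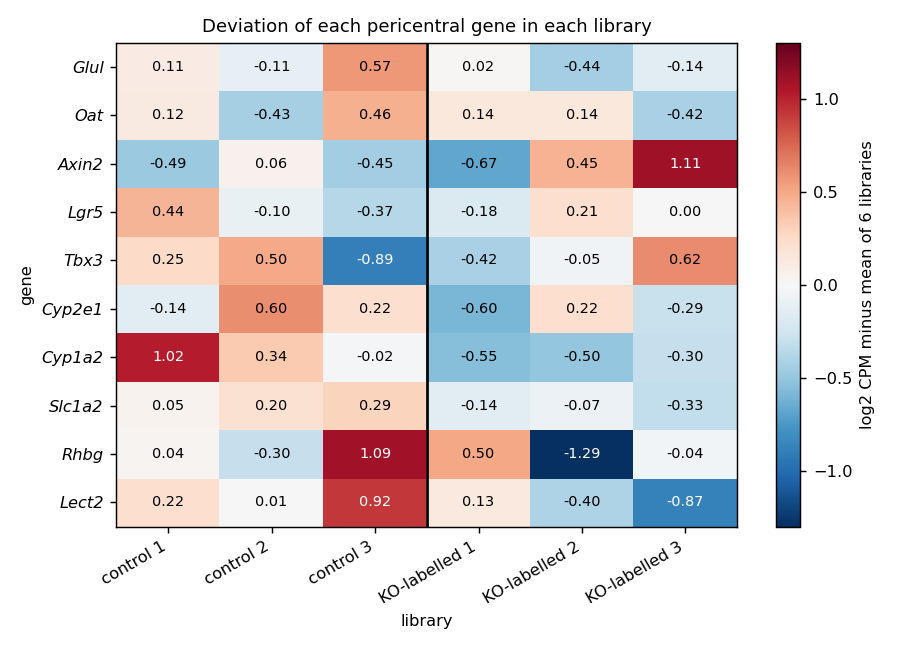
Deviation of each pericentral gene (rows) in each library (columns) from the gene's mean over the 6 libraries, in log2 CPM with a prior count of 2 (colour scale and printed values). Control replicate 3 is high for Rhbg (1.09), Lect2 (0.92) and Glul (0.57) and low for Tbx3 (-0.89), and Axin2 (1.11) and Lect2 (-0.87) stand opposite in knockout-labelled replicate 3.

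Promoter sequence was compared for the members whose start site is in the RefSeq table (GRCm38.p6), which were 7 of the 10, all but Lgr5, Tbx3 and Rhbg. TCF and LEF factors, through which β-catenin acts, bind a short core, searched here as CTTTGA or its reverse complement TCAAAG in the 250 bases before the start. It occurred in 4 of the 7 promoters, those of Slc1a2, Cyp2e1, Cyp1a2 and Lect2, and in 13.8% of 32851 promoters in the table. The longer form CTTTGAT or ATCAAAG, which contains the core, occurred in 2 of the 7, Slc1a2 and Lect2, and in 3.21% of all promoters. A match describes the letters and is not a bound site. The 4 stretches are shown 5′ to 3′ on the gene's strand, with the core in capitals, each ending before the gene's annotated exons. They lie at chr2:102706188-102706355 (plus), chr7:140763569-140763738 (plus), chr9:57683704-57683905 (minus) and chr13:56548539-56548788 (minus). The Slc1a2 start in the table lies inside the gene as annotated in GENCODE.
Slc1a2: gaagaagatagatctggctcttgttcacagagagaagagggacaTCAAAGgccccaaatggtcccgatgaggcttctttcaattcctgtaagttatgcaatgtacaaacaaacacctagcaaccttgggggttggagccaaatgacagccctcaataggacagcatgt
Cyp2e1: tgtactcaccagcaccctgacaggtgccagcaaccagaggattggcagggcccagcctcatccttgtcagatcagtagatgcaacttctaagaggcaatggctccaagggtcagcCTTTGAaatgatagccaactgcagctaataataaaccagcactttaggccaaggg
Cyp1a2: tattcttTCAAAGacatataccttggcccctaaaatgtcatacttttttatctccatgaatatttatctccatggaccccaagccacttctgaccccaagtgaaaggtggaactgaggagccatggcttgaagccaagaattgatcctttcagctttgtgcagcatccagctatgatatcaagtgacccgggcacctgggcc
Lect2: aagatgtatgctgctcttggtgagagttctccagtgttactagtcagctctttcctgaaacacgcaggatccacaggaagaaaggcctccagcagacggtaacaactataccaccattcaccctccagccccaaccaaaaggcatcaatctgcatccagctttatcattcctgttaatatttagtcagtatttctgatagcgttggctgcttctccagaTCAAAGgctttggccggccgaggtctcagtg

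The core began 206 bases before the start in Slc1a2, 135 in Cyp2e1, 243 in Cyp1a2 and 31 in Lect2. Both genes whose groups did not overlap, Cyp1a2 and Slc1a2, hold it, as do Cyp2e1 and Lect2, which overlapped. No match was found in this window for Glul, Oat or Axin2.

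Other pericentral genes, from a list of 22 that did not include the 10, were mixed and none passed the threshold. Of the 22, all tested, 16 had a log2 difference below 0 and 6 above it, with a median of -0.13. In 3 the unadjusted p was under 0.05, all lower and all without overlap between groups, against 1.9% of all genes with such a p and 4.55% without overlap in that direction. Cyp2a5, which oxidises coumarin and nicotine, measured 1559, 912 and 1839 CPM in controls and 910, 649 and 344 CPM in knockout-labelled libraries, a log2 difference of -1.18 (SE 0.42). Cyp2c37, an arachidonic acid hydroxylase, differed by -0.86 (SE 0.30) and Slc13a3, a dicarboxylate transporter, by -0.73 (SE 0.31), each with an edgeR adjusted p of 0.84. Slc22a3, an organic cation transporter with the next smallest p, had 23.7 CPM in knockout-labelled replicate 1 and 2.26 to 5.10 CPM in the other 5 libraries. Cyp2a5 has near-identical copies among the Cyp2a genes, as Cyp2c37 has among the Cyp2c genes, so their counts are uncertain.

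Periportal genes lay on the other side of 0. Of 25 tested, 18 had a log2 difference above 0 and 7 below it, with a median of 0.19, and none passed the threshold. In 1, G6pc, which releases glucose from glucose 6-phosphate, the groups did not overlap, with 271, 165 and 323 CPM in controls and 389, 370 and 425 CPM in knockout-labelled libraries (log2 difference 0.64, SE 0.28, edgeR adjusted p = 0.84), against 4.79% of all genes without overlap in that direction. The next by p were Gls2, the liver glutaminase (0.57, SE 0.27), Arg1, the arginase of the urea cycle (0.48, SE 0.27), and Aldh1b1, a mitochondrial aldehyde dehydrogenase (0.81, SE 0.45).

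Within a library, the balance between the zones does not depend on how libraries are scaled. For each library the median deviation of the periportal list, in log2 CPM from each gene's mean over libraries, was subtracted from that of the 10 pericentral genes. The balance was 0.14, 0.12 and 0.31 in control livers 1 to 3, and it was -0.47, -0.21 and -0.01 in knockout-labelled livers 1 to 3. All 3 controls were above 0 and all 3 knockout-labelled libraries below it, with knockout-labelled replicate 3 at the edge. The means were 0.19 ± 0.11 (SD, n = 3) and -0.23 ± 0.23 (SD, n = 3), a difference of -0.42. It was -0.49 to -0.34 with 1 library left out, and -0.47 on the deposited TPM. With the length offset it was -0.47, and with length and GC trends removed -0.43. Alternatives that change the scaling, filter, test or block leave it almost unchanged by construction, so they do not bear on it. Both lists were chosen with earlier results of these data known, so no test is given.

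The sources of this balance differed between animals. In knockout-labelled replicate 1 the periportal median was 0.31 and the pericentral median -0.16, and in replicate 2 they were 0.15 and -0.06. In replicate 3 both medians were low, at -0.21 and -0.22. With the 22 other pericentral genes in place of the 10, the balance was 0.10, 0.24 and 0.16 in controls and -0.32, -0.19 and 0.11 in knockout-labelled libraries, and the groups overlapped through replicate 3.

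**Figure D5:**
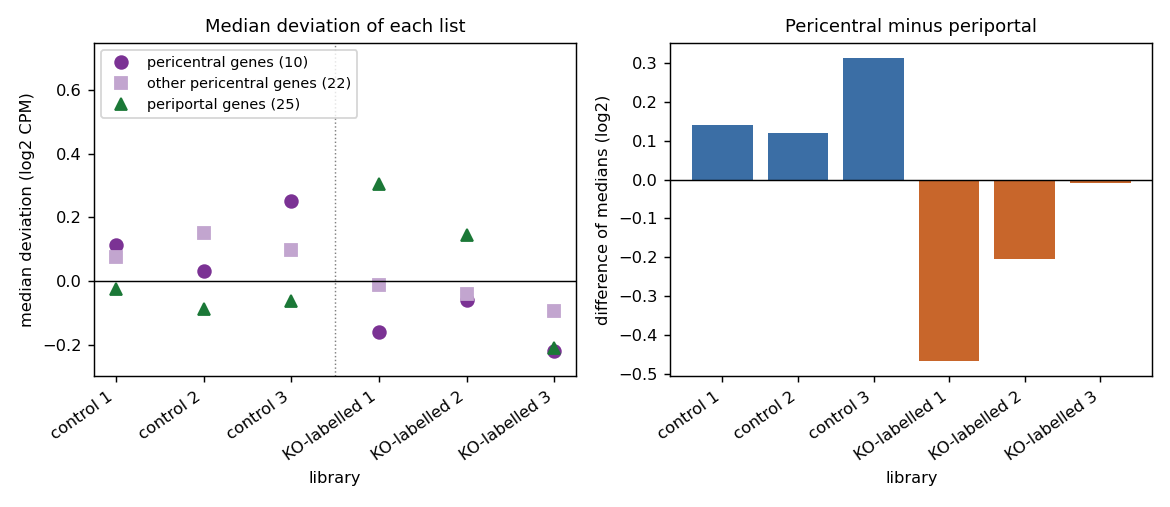
Left, median deviation (log2 CPM from each gene's mean over 6 libraries) of the 10 pericentral genes, 22 other pericentral genes and 25 periportal genes in each library. Right, the pericentral median minus the periportal median, in log2 units, with bars from 0: the controls lie between 0.12 and 0.31 and the knockout-labelled libraries between -0.47 and -0.01.

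Ratios of counts within a library are given for 5 pairs of genes, which were picked after their values were seen and carry no test. The share of all gene pairs without overlap was not computed. Glul over Gls2, that is glutamine synthesis over glutamine breakdown, was 3.55, 4.24 and 6.0 in controls and 2.26, 1.73 and 3.40 in knockout-labelled libraries, and all controls were above all knockout-labelled values. Slc1a2 over Gls2 was 0.606, 0.937 and 0.878 in controls and 0.360, 0.397 and 0.534 in knockout-labelled libraries, without overlap. Both ratios have Gls2 below the line, so they are not separate observations. Cyp1a2 over Cyp2f2, a periportal P450, was 1.33, 0.727 and 0.526 in controls and 0.390, 0.472 and 0.515 in knockout-labelled libraries, where control replicate 3 and knockout-labelled replicate 3 nearly met. Oat over Otc, the urea cycle enzyme that competes for ornithine, overlapped, at 1.97, 1.07 and 2.39 in controls and 2.13, 2.16 and 1.35 in knockout-labelled libraries, as did Cyp2e1 over Cyp2f2.

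The Wnt ligands and their helpers were measured on few counts. Of 8 genes 7 were tested, 3 above 0 and 4 below it, with a median of -0.10 and none past the threshold. Wnt2, a ligand of central vein and sinusoidal endothelium, measured 2.72, 2.74 and 4.43 CPM in controls and 1.81, 2.57 and 1.76 CPM in knockout-labelled libraries, without overlap (log2 difference -0.69, SE 0.33, edgeR adjusted p = 0.84), against 4.55% of all genes without overlap in that direction. Wnt9b, the other central vein ligand, had 3 to 12 counts a library and differed by -0.43 (SE 0.58). Rspo3, the R-spondin of the central vein, differed by 0.09 (SE 0.33). Wls, which carries Wnt proteins to the cell surface, differed by -0.10 (SE 0.27), and Porcn, which attaches their lipid, by 0.39 (SE 0.35). Wnt4 differed by -0.30 (SE 0.58) and Wnt5a, a ligand that mostly acts without β-catenin, by 0.31 (SE 0.63). Rspo1 had 0 to 3 counts a library and was not tested.

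Receptors and intracellular parts of the pathway lay more often above 0. Of 9 receptor genes, 7 were above 0, with a median of 0.06. In 2 the unadjusted p was under 0.05 and the groups did not overlap, both higher, against 2.65% of all genes with such a p and 4.79% without overlap in that direction. Lrp5, a Wnt co-receptor, measured 12.7, 11.4 and 7.62 CPM in controls and 12.9, 26.6 and 24.9 CPM in knockout-labelled libraries (log2 difference 1.02, SE 0.32, edgeR adjusted p = 0.84), so knockout-labelled replicate 1 was just above the highest control and the other 2 were the libraries with the most transcripts above 0, whose part in the result was not tested. Fzd1, a Wnt receptor, measured 2.88, 3.12 and 2.67 CPM in controls and 4.32, 4.60 and 5.11 CPM in knockout-labelled libraries (0.70, SE 0.24). Lgr4, a relative of Lgr5, differed by -0.18 (SE 0.20) and Lrp6 by -0.20 (SE 0.24).

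Of 16 tested intracellular components, 11 were above 0, with a median of 0.23, and no member reached an unadjusted p under 0.05. Those with the smallest p were the Wnt transducers Dvl1 (0.56, SE 0.30) and Dvl2 (0.68, SE 0.38) and the destruction complex scaffolds Axin1 (0.56, SE 0.34) and Apc (0.33, SE 0.26). Ctnnb1, β-catenin itself, is named for its role after its values were seen. It measured 28.8, 72.0 and 69.1 CPM in controls and 34.0, 78.8 and 77.7 CPM in knockout-labelled libraries, low in replicate 1 of both groups (log2 difference 0.17, SE 0.42).

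Wnt inhibitors were divided, with 3 of 7 tested genes above 0 and a median of -0.19. Kremen1, a receptor for Dickkopf proteins, had an unadjusted p under 0.05 and no overlap, with 2.98, 3.56 and 3.19 CPM in controls and 3.71, 5.05 and 7.17 CPM in knockout-labelled libraries (0.71, SE 0.30, edgeR adjusted p = 0.84). Over all genes, 2.65% had such a p and 4.79% had no overlap in that direction. Sfrp1, which binds Wnt outside the cell, differed by -1.38 (SE 0.82) on 2 to 55 counts, Rnf43, which removes Wnt receptors, by 0.37 (SE 0.25), and Nkd1, which acts on Dishevelled, by -0.26 (SE 0.32). Dkk1 had 0 counts in all 6 libraries, which allows up to 3 counts, or 0.126 to 0.164 CPM, in each. Other known Wnt targets, 5 tested, stood 2 above and 3 below 0 with a median of -0.04: Tnfrsf19 (-0.07, SE 0.39), Sp5 (-0.07, SE 0.36), Myc (0.06, SE 0.47) and Sox9 (0.24, SE 0.63), which also marks cholangiocytes.

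The partners of Glul, Oat and Slc1a2 in glutamine, ornithine and glutamate metabolism centred on 0. Of 22 genes 18 were tested, 10 above 0 and 8 below it, with a median of 0.03, and none had an unadjusted p under 0.05. Those with the smallest p were Odc1, which turns ornithine into putrescine (-0.60, SE 0.27), Gls2, given above, Got1, the cytosolic aspartate aminotransferase (0.60, SE 0.30), and Slc1a4, a neutral amino acid transporter (0.59, SE 0.36). Slc1a1 and Rhcg had 0 counts in every library.

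The aryl hydrocarbon receptor axis, through which Cyp1a2 is induced, centred near 0. Of 8 genes 7 were tested, 5 above 0 and 2 below it, with a median of 0.07 and none with an unadjusted p under 0.05. Ahr, the receptor, named for its role after its values were seen, measured 37.3, 27.8 and 26.8 CPM in controls and 27.7, 36.6 and 32.2 CPM in knockout-labelled libraries. Arnt, its partner on DNA, differed by 0.38 (SE 0.25), and Tiparp, an induced repressor, by 0.31 (SE 0.28). Cyp1a1, the neighbour of Cyp1a2 and a target of the same receptor, differed by -1.04 (SE 0.65) on 4 to 29 counts a library.

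Hepatocyte markers at large were present at high level in every library, and their log2 differences fell on both sides of 0. Of 9, 5 were above 0, with a median of 0.03. Their summed level was 97888, 104370 and 130610 CPM in controls and 121670, 115840 and 70485 CPM in knockout-labelled libraries. The sum was highest in control replicate 3 and lowest in knockout-labelled replicate 3, and most of it was Alb (88282 CPM in control replicate 3). Of the 9 markers, only Alb and Ttr were highest in that control library. Markers of central vein endothelium summed to 11.1 to 18.9 CPM in controls and 11.1 to 14.3 CPM in knockout-labelled libraries, with 5 of 6 below 0 and a median of -0.12. Kupffer cell and macrophage markers were below 0 in 10 of 10, with a median of -0.61 and sums of 251, 371 and 791 CPM in controls and 360, 253 and 310 CPM in knockout-labelled libraries. Control replicate 3 held the highest hepatocyte sum, mostly Alb, and the highest macrophage sum, as it held the highest Glul, Oat, Rhbg, Lect2 and Slc1a2. The part of these sums in those results was not tested. Erythroid markers were below 0 in 5 of 5 tested, with a median of -0.97 and sums of 727 to 1678 CPM in controls and 439 to 1107 CPM in knockout-labelled libraries.

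Sinusoidal endothelial markers had 5 of 10 above 0 and a median of 0.05, and stellate cell markers 7 of 10 and 0.22. Cholangiocyte markers had 2 of 5 tested above 0 and a median of -0.35, and T, NK and B cell markers 3 of 7 and -0.15. Neutrophil markers had 0 of 3 tested above 0 and a median of -1.33, on sums of 3.81 to 15.7 CPM. None of these lists held a gene past the threshold.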

How the data were processed

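Poly-A RNA of liver was sequenced as read pairs, per the labels. Each deposited file gives estimated counts and TPM for 115221 transcripts of 1 library, with Salmon's columns per the file headers, and the TPM add up to a common total in each library. The version and transcriptome used with Salmon are not given in the sources at hand. The submitters' processing notes name Bowtie2 2.2.5, RSEM 1.2.8, DESeq and GRCm38 without a role.

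Transcripts were assigned to genes by GENCODE M21 identifiers without their version (113664 of 115221; the 1557 unmatched held at most 0.268% of counts). Estimated counts were summed per gene and rounded. Overlapping genes and near-identical copies may share reads in these sums. The comparison of 3 knockout-labelled with 3 control libraries used edgeR 4.0.16 in R 4.3.3: filterByExpr, TMM, the two-sided quasi-likelihood test and Benjamini-Hochberg adjustment over all 12497 genes, with a threshold of 0.05. Intervals are 95%, from standard errors computed as the absolute log2 difference over the square root of F. Deviations and correlations use log2 CPM with a prior count of 2. Medians and counts of lists are descriptions. The method was tested on simulated data. Replicate libraries all differed beyond sampling noise.

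The members and gene lists were chosen with earlier results of these data known. The named genes are the 10 members, G3bp1, every Wnt ligand gene, up to 4 genes of the smallest p in each other pathway list, and the 3 genes most like Glul, Cyp2e1 and Cyp1a2. Genes named otherwise are so described in the text. A gene that the rule takes is not reported here. Alternatives were DESeq2 1.42.0, its size factors, library totals, no filter, limma 3.58.1 (voom, with and without sample weights, and on log2(TPM + 0.1)), a length offset, removal of length and GC trends (loess, span 0.5, degree 2), each library left out, and the replicate block. Protein-coding genes alone were added after seeing the data.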

Additional observations from a re-analysis of the deposited data

How the results depend on the processing

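No pericentral gene passed the threshold in any of the 18 alternatives, and the lowest adjusted p of a member in any of them was 0.146, for Lect2. The number of genes past the threshold in the whole table was 0 in 16 alternatives and 12 with DESeq2. Leaving out 1 library at a time gave 0 to 3 genes, with 3 when knockout-labelled replicate 1 was left out. The median of the members was -0.13 with library totals and -0.070 on the deposited TPM, and -0.43 to -0.21 when 1 library was left out. The pericentral minus periportal difference was -0.49 to -0.34 when 1 library was left out. Glul, Cyp2e1, Cyp1a2, Slc1a2 and Lect2 stayed below 0 and Axin2 above 0 in all 18 alternatives. The cause of the changes in sign was not tested.

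The sign of Oat turned with library totals (0.11), on the TPM (0.26), and without control replicate 3 (0.11) or knockout-labelled replicate 3 (0.04). That of Lgr5, at -0.01, turned with library totals (0.26), voom (0.026), voom with sample weights (0.28), TPM (0.42) and the length offset (0.10), and without control replicate 1 (0.25) or knockout-labelled replicate 1 (0.08) or 3 (0.00023). That of Tbx3 turned with the trends removed (-0.18) and without control replicate 3 (-0.25) or knockout-labelled replicate 3 (-0.28). That of Rhbg turned without control replicate 3 (0.028). With 1 library left out, Oat ran from -0.33 to 0.11, Lgr5 from -0.17 to 0.25, Tbx3 from -0.28 to 0.33 and Rhbg from -0.96 to 0.028.

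The replicate numbers were not treated as pairs, since the labels name no shared litter or batch. Same-numbered libraries deviated together with r = 0.20, 0.27 and -0.14, and not every library correlated best with its own number. Whether a number marks a shared batch is not known from the labels. With the replicate block 0 genes passed the threshold (719 with an unadjusted p under 0.05, against 568 without it), the median of the members was -0.37 and Lgr5 was 0.020. With the block and the trends removed together Tbx3 was -0.13. Depth limits Axin2, Rhbg and Lgr5, which had as few as 27, 37 and 73 counts in a library.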

Other observations

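Some pericentral genes outside the 10 stood high in single libraries, and they are named here after their values were seen. Gstm3, a glutathione transferase, stood at 11.7, 7.06 and 42.0 CPM in the control livers and at 95.4, 11.6 and 11.8 CPM in the knockout-labelled livers, in replicate order. Gstm2 followed the same order at its upper end, with 166 CPM in knockout-labelled replicate 1, 134 CPM in control replicate 3 and 23.6 to 53.6 CPM in the other 4 libraries. Slc22a3 was high in knockout-labelled replicate 1 as well, at 23.7 CPM. The Gstm genes are near-identical copies, so their counts are uncertain.

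Replicate 1 of both groups, the libraries with the largest share of Cyp2e1-202, also had the lowest values of several other genes, chosen after their values were seen. Cldn2, a claudin of pericentral hepatocytes, measured 19.8 and 25.9 CPM in replicate 1 of the control and knockout-labelled groups and 51.0 to 71.5 CPM in the other 4 libraries. Cyp2c29 measured 540 and 545 CPM there and 1058 to 2532 CPM elsewhere. Ctnnb1 measured 28.8 and 34.0 CPM there and 69.1 to 78.8 CPM elsewhere. Knockout-labelled replicate 1 was quantified with another effective length setting, and control replicate 1 was not. The part of that setting in these values was not tested.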
